A study of Mus musculus with 11 samples.

Results

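The 4 Hox gene clusters of the mouse were examined for binding of the cohesin complex in embryonic fibroblasts with and without its subunit SA1. Hox genes encode homeodomain transcription factors that specify position along the body axis. Their order on the chromosome follows the order in which they are active along the embryo, and insulator sites bound by CTCF and cohesin are known to separate active from silent parts of a cluster. Cohesin is a ring of SMC1, SMC3 and a kleisin, to which either SA1 or SA2 is attached in somatic cells. The complex keeps sister chromatids paired and folds the chromosome into loops.

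Members were all deposited intervals, from 8 chromatin immunoprecipitation (ChIP-seq) lists, that overlapped fixed windows of the mm9 genome. The windows were chr6:52050000-52300000 for HoxA, chr11:96000000-96300000 for HoxB, chr15:102700000-102950000 for HoxC and chr2:74400000-74700000 for HoxD. They took in 149 of 162241 intervals, of which 50 lay in HoxA, 48 in HoxB, 21 in HoxC and 30 in HoxD. The windows spanned 1.10 Mb, 0.0428% of the genome covered by the lists. An interval is a stretch called as enriched over input DNA, and it has a place and a width but no height.

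Cells were untreated mouse embryonic fibroblasts taken at stage E12.5 from embryos of a C57BL/6 x 129 Sv background. Wild-type cells were probed with antibodies to SA1, SA2, SMC1 and SMC3, and so were SA1-null cells, in which every cohesin ring lacks SA1. The sources used here do not state how SA1 was deleted. Both input DNA libraries were pools over wild-type and SA1-null cells. Each list stood for 1 library except SMC1 in SA1-null cells, whose list takes 2 replicates together, which leaves no replicate spread to set a difference between genotypes against, and none was tested. Ranges given in brackets are 95% Wilson intervals, or exact binomial ones for ratios, and cover the counting of intervals and nothing else. Sequencing depth is unknown, and since the number of intervals in a list depends on it, differences between genotypes compare lists rather than amounts of bound cohesin.

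The files carry no gene names. All 38 Hox genes considered were found in a RefSeq table of another build (GRCm38.p6), which was used only for their order. By rising coordinate, HoxA runs from Hoxa2 to Hoxa13 between Skap2 and Evx1. HoxB runs from Hoxb13 to Hoxb1 between Ttll6 and Skap1, HoxC from Hoxc13 to Hoxc4 between Calcoco1 and Smug1, and HoxD from Hoxd13 to Hoxd1 between Evx2 and Mtx2. HoxA is thus laid out with its anterior genes first and the other clusters with their posterior genes first. Which gene lies at an interval was not analysed here, and intervals are named by mm9 coordinates.

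No interval of the SA1-null SA1 list or of either input list lay in a Hox window. The SA1-null SA1 list, which measures what the SA1 antibody calls in cells without SA1, held 177 intervals in all, and the input lists 436 and 417. Overlapping intervals of the 8 lists were joined into positions, of which the windows held 48, with 18 in HoxA, 14 in HoxB, 6 in HoxC and 10 in HoxD. This was 43.6 positions per Mb in the windows and 22.8 per Mb over the genome. SA1 of wild-type cells was present at 26 of the 48 (54.2%, with a background of 44.9%), and 14 positions rested on 1 list only (29.2%, with a background of 40.5%). Positions are numbered from 1 in each window by rising coordinate.

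In wild-type cells the windows held 26 SA1 intervals, 9 SA2 intervals, 25 SMC1 intervals and 15 SMC3 intervals. All 4 densities were above those of the whole lists. SA1 stood at 23.6 intervals per Mb in the windows against 10.4 over the genome, SA2 at 8.18 against 3.01, SMC1 at 22.7 against 9.34 and SMC3 at 13.6 against 6.06. HoxB had the most SA1 intervals, 10, and as many or more were present in 2.99% of 8551 genome tiles of 300 kb. HoxA and HoxD had 6 each and HoxC had 4, which 13.2%, 19.3% and 31.7% of tiles of the same length reached. HoxA led for wild-type SMC1, with 8 intervals, a number reached by 5.06% of 10265 tiles of 250 kb.

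**Figure D1:**
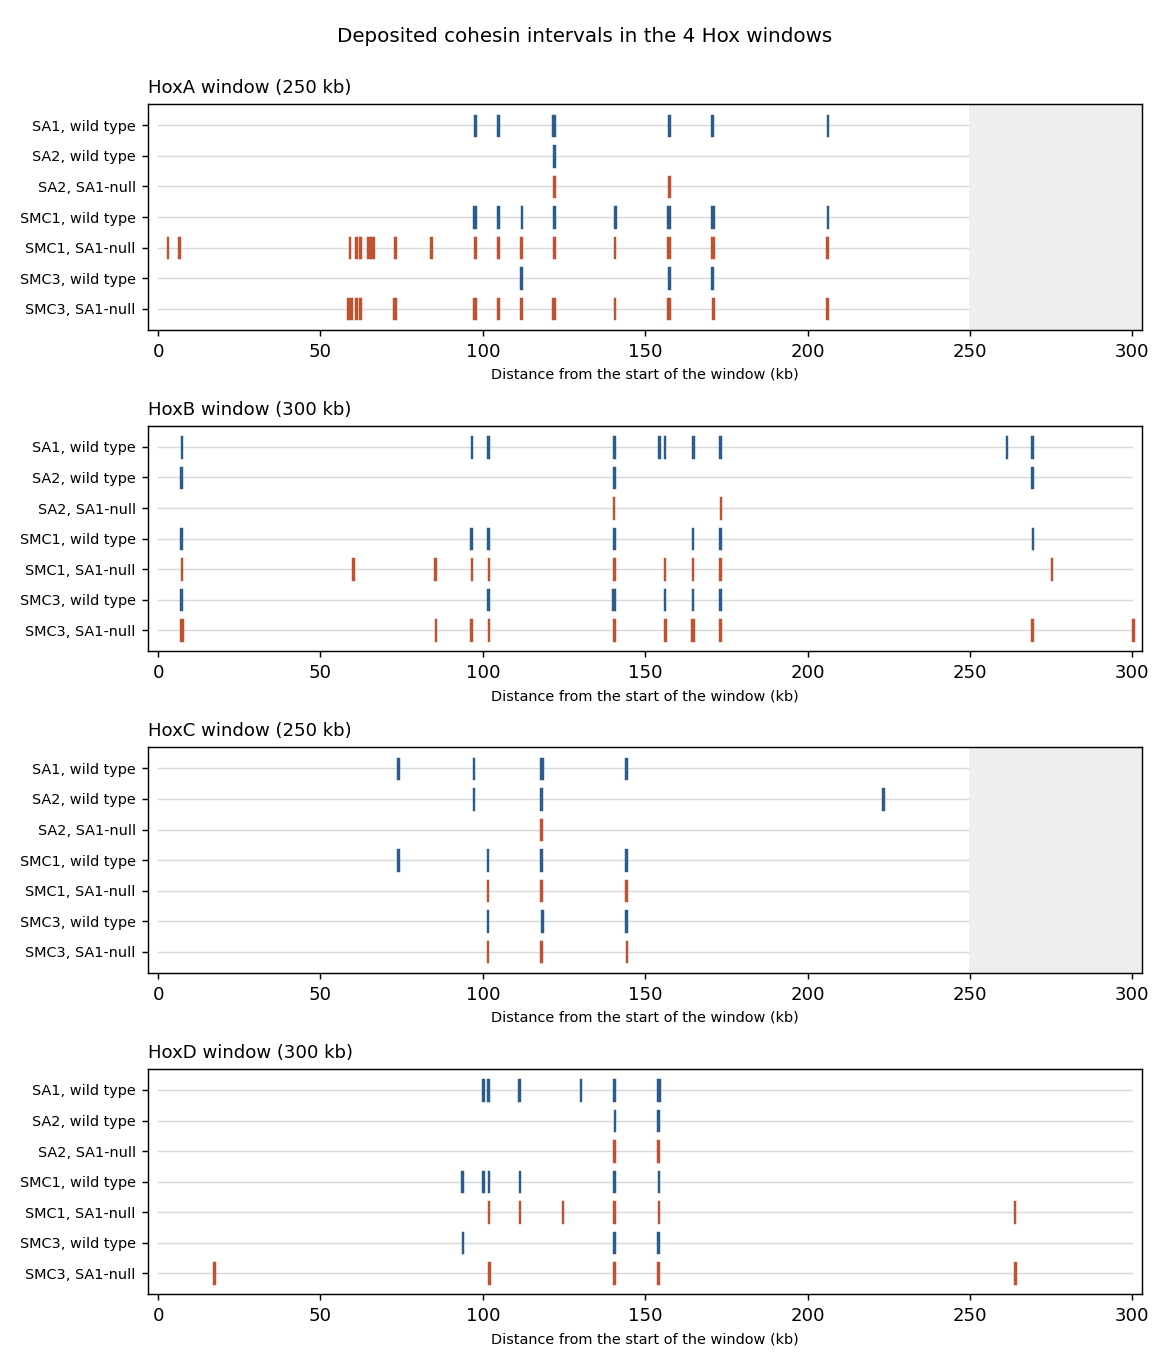
Each mark is 1 deposited interval, drawn at its distance in kb from the start of its window, in the 4 Hox windows and in 7 lists (blue, wild type; orange, SA1-null; grey shading lies beyond the 250 kb windows). Columns of marks that cross all or most rows are positions called with several antibodies, and the SA1-null rows of HoxA begin with marks that have no wild-type counterpart.

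Most SA1 positions of the clusters carried the ring in wild-type cells. SMC1 or SMC3 was called at 22 of the 26 SA1 positions (84.6%, interval 66.5 to 93.8%), with a background of 67.3% of 26330 SA1 positions over the genome. SMC1 had an interval at 21 of the 26 SA1 intervals, 80.8%, where the background over the whole SA1 list was 65.6%. SMC3 had one at 12 of 26, 46.2%, with a background of 50.1%. All 6 SA1 intervals of HoxA had SMC1 and 2 of them had SMC3. The 4 SA1 positions without a wild-type ring interval were HoxB positions 7 and 11, HoxC position 2 and HoxD position 7.

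Read from the ring side, most wild-type ring intervals of the clusters lay at SA1, as over the genome. Of 25 SMC1 intervals 21 lay at SA1 (84.0%, interval 65.3 to 93.6%), and the background was 72.5%. Of 15 SMC3 intervals 12 did (80.0%, interval 54.8 to 93.0%), with a background of 85.4%. In HoxB this held for all 7 SMC1 and all 6 SMC3 intervals. Both ring subunits were called in both genotypes at 13 positions (27.1%, with a background of 24.4%). In 2 of the 48 positions both ring subunits were called in both genotypes with no SA1 and no SA2 in any list, against 2.53% of all positions. They were HoxA position 13 at chr6:52161466-52162030 and HoxC position 3 at chr15:102801144-102801686. At the HoxA site SMC1 was 397 bp wide in wild-type cells against 556 bp in SA1-null ones, and SMC3 was 517 bp against 467 bp. At the HoxC site SMC1 measured 471 bp against 336 bp and SMC3 281 bp against 482 bp in the same order.

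Nearly all SMC3 intervals of the clusters had SMC1, while fewer of the SMC1 intervals had SMC3. In wild-type cells 14 of 15 SMC3 intervals had SMC1 (93.3%, with a background of 93.7%) and 14 of 25 SMC1 intervals had SMC3 (56.0%, with a background of 60.7%). In SA1-null cells 28 of 31 SMC3 intervals had SMC1 (90.3%, with a background of 88.8%) and 27 of 36 SMC1 intervals had SMC3 (75.0%, with a background of 66.6%). Among the wild-type SMC1 intervals, HoxA stood lowest with 3 of 8 at SMC3, and HoxC highest with 3 of 4. Wild-type SMC3 without wild-type SMC1 occurred once, at HoxB position 8 (chr11:96155726-96156291), where SMC3 was 415 bp wide, SA1 450 bp, and SMC1 and SMC3 of SA1-null cells 452 and 548 bp.

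A core of 8 positions was called in at least 6 of the 7 lists other than SA1-null SA1, which was 16.7% of the window positions against a background of 11.2%. In 4 of them all 7 lists were present, with a background of 4.13%. HoxB position 6 at chr11:96139890-96140673 was one of these, and its widths were SA1 466 bp, SA2 653 and 547 bp, SMC1 538 and 631 bp, SMC3 767 and 719 bp, with wild-type values before SA1-null values. Its wild-type SMC3 interval was the widest of the HoxB window. HoxC position 4 at chr15:102817666-102818451 held the widest interval of that window, SA1 at 782 bp. There SA2 measured 511 and 575 bp, SMC1 687 and 626 bp, and SMC3 587 and 627 bp. HoxC had this one position in all 7 lists, and SA2 of SA1-null cells was called nowhere else in its window.

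HoxD had 2 positions in all 7 lists, side by side and 12.8 kb apart. HoxD position 8 at chr2:74540123-74540833 had widths of 629 bp in SA1, 390 and 571 bp in SA2, 613 and 650 bp in SMC1 and 551 and 673 bp in SMC3. HoxD position 9 at chr2:74553652-74554484 had widths of 773 bp in SA1, 696 and 590 bp in SA2, 586 and 428 bp in SMC1 and 671 and 582 bp in SMC3. From wild type to SA1-null, widths were thus larger for SA2, SMC1 and SMC3 at position 8 and smaller for all 3 at position 9. These were the only SA2 sites of HoxD in either genotype.

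HoxA had no position in all 7 lists and 2 in 6 of them. HoxA position 14 at chr6:52171424-52172126 lacked wild-type SMC3 alone and held the only wild-type SA2 interval of the window. Its widths were 643 bp for SA1, 565 and 528 bp for SA2, 615 and 641 bp for SMC1 and 673 bp for SA1-null SMC3. HoxA position 16 at chr6:52206762-52207662 lacked wild-type SA2 alone. There SA1 was 592 bp wide, SA1-null SA2 535 bp, SMC1 712 and 701 bp and SMC3 625 and 901 bp. The remaining 2 core positions, HoxB positions 1 and 10, also differed between genotypes in SA2.

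Over the windows SA2 had 9 intervals in wild type against 7 without SA1, a ratio of 0.778 (exact binomial interval 0.246 to 2.35) where the whole lists gave 0.821. Of the 9 wild-type intervals 5 had an SA1-null SA2 interval (55.6%, interval 26.7 to 81.1%), and the background was 37.3%. In the other direction, 5 of the 7 had a wild-type partner (71.4%, interval 35.9 to 91.8%), with a background of 45.4%. All 7 SA1-null SA2 intervals lay at a wild-type SA1 interval, with a background of 90.6%, and 8 of the 9 wild-type ones did, with a background of 69.1%. SA1-null SA2 was called at 7 of the 26 SA1 intervals (26.9%, interval 13.7 to 46.1%), with a background of 21.6% over the whole SA1 list. At 19 of the clusters' SA1 intervals no SA2 interval was thus called in the cells without SA1. In wild-type cells SA2 was likewise not called at 18 of the same 26, and called at 8 (30.8%, with a background of 20.1%). The SA2 list of SA1-null cells was short, at 6352 intervals, so a missing interval does not show a missing protein.

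In SA1-null cells only, SA2 was called at 2 positions (4.17%, with a background of 5.88%), and SA1 and both ring subunits of both genotypes were present at each. One was HoxA position 16, described above. The other was HoxB position 10 at chr11:96172768-96173422, where SA1-null SA2 was 469 bp wide, SA1 559 bp, SMC1 445 and 556 bp and SMC3 507 and 649 bp.

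SA2 of wild-type cells alone was present at 5 positions (10.4%, with a background of 8.25%). HoxB position 1 at chr11:96006775-96007524 had SA2 at 425 bp, SA1 at 447 bp, SMC1 at 506 and 444 bp and SMC3 at 638 and 750 bp. HoxB position 12 at chr11:96268886-96269506 had SA2 at 468 bp, SA1 at 592 bp, wild-type SMC1 at 376 bp and SA1-null SMC3 at 606 bp. These ring calls differ between genotypes in which subunit passed the authors' threshold. HoxC position 2 at chr15:102796844-102797339 had SA2 at 320 bp and SA1 at 496 bp, with no ring subunit in any list. HoxC position 6 at chr15:102922927-102923436 had SA2 alone, at 510 bp. HoxB position 14 at chr11:96299976-96300539 straddled the end of the window. Its SA1-null SMC3 interval of 564 bp crossed the edge and was counted, while wild-type SA2 at 377 bp, wild-type SMC1 at 392 bp and SA1-null SMC1 at 448 bp began beyond the edge and were not.

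**Figure D2:**
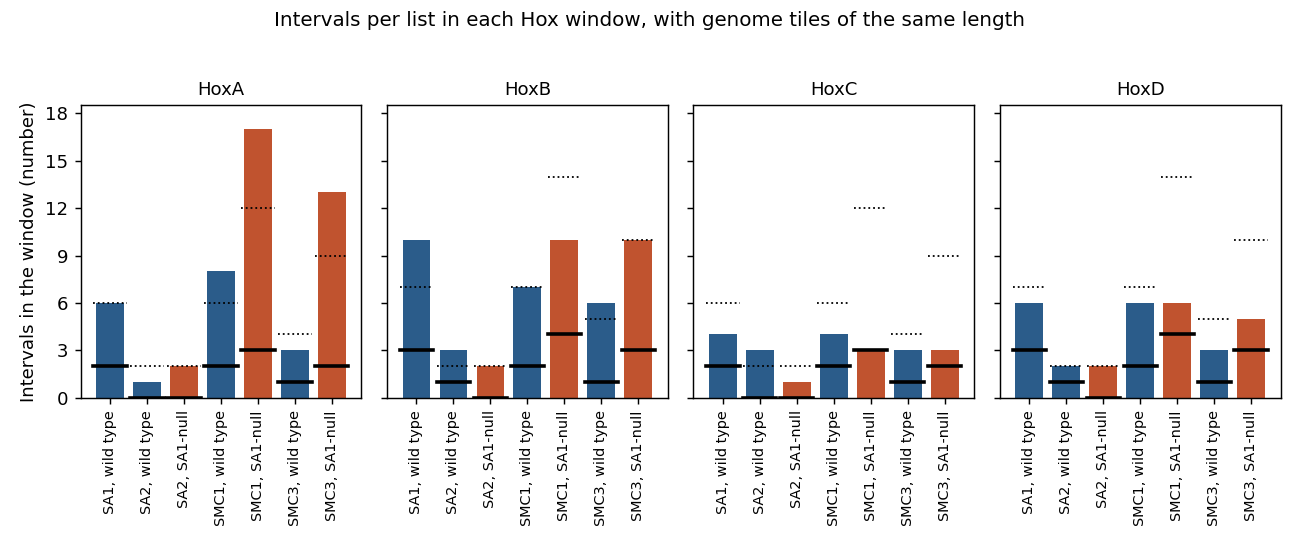
Bars give the number of intervals in each Hox window for 7 lists (blue, wild type; orange, SA1-null). Solid lines are the median and dotted lines the 90th percentile over genome tiles of the same length. HoxA exceeds the dotted line for SMC1 of both genotypes and for SA1-null SMC3. HoxB exceeds it for SA1, SA2 and SMC3 of wild type, and HoxC for wild-type SA2. HoxC and HoxD stay below it for SMC1 and SMC3.

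Ring intervals were more numerous in SA1-null cells, mainly at HoxA. SMC1 had 25 in wild type against 36 without SA1 (ratio 1.44, exact binomial interval 0.841 to 2.50), against 1.96 for the whole lists. SMC3 had 15 against 31 (ratio 2.07, interval 1.08 to 4.12), against 2.24. These ranges take the counts of the genotypes as independent, but 14 of the 15 wild-type SMC3 intervals had an SA1-null SMC3 interval. They therefore do not test a difference between genotypes. HoxA went from 8 to 17 for SMC1 and from 3 to 13 for SMC3, and HoxB from 7 to 10 and from 6 to 10. HoxC gave 4 and 3 for SMC1 and 3 and 3 for SMC3, and HoxD 6 and 6 for SMC1 and 3 and 5 for SMC3. HoxA thus came first for SMC1 in both genotypes, while for SMC3 HoxB came first in wild type and HoxA without SA1. With the lists of each antibody brought to equal length over the genome by keeping the widest intervals, the window ratios were 0.880 for SMC1 and 0.667 for SMC3.

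Wild-type ring intervals were looked for again in the SA1-null lists. Of 15 wild-type SMC3 intervals 14 had an SA1-null SMC3 interval (93.3%, interval 70.2 to 98.8%), and the background was 96.7%. Of 25 wild-type SMC1 intervals 21 had an SA1-null SMC1 interval (84.0%, interval 65.3 to 93.6%), and the background was 93.4%. With lists of equal length the shares were 48.0% for SMC1 and 26.7% for SMC3, and with the widest 50% of each list the SMC3 share was 60.0%. These settings shorten lists over the whole genome, and no background share was computed for them. In the full lists all 8 SMC1 intervals of HoxA were called again, as were 6 of 7 in HoxB, 3 of 4 in HoxC and 4 of 6 in HoxD. At 8 positions SMC1 was called in both genotypes but SMC3 in SA1-null cells alone, 16.7% of the window positions with a background of 11.5%. Of these 5 lay in HoxA (positions 11, 12, 14, 15 and 18).

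Ring intervals of SA1-null cells were also set against the wild-type SA1 sites. For SMC1 19 of 36 lay at one (52.8%, interval 37.0 to 68.0%), with a background of 45.5%, and for SMC3 19 of 31 (61.3%, interval 43.8 to 76.3%), with a background of 57.5%. HoxA had the lowest shares, 6 of 17 and 6 of 13, and HoxB the highest, 7 of 10 and 8 of 10. The HoxA counts include a run of positions, described below, that lacks wild-type intervals by definition. Without it 6 of 8 HoxA intervals lay at SA1 for each subunit, and leaving it out can only raise these shares. A wild-type partner of the same antibody was present for 21 of the 36 SMC1 intervals (58.3%, with a background of 47.8%) and 14 of the 31 SMC3 intervals (45.2%, with a background of 43.1%). Read from the SA1 side, 19 of 26 SA1 intervals had SA1-null SMC1 (73.1%, with a background of 80.4%), and 19 of 26 had SA1-null SMC3 (73.1%, with a background of 75.7%).

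The HoxA window opened with 10 positions called in SA1-null cells alone. They belonged to a run of 16 consecutive positions without any wild-type interval, from chr6:52002020 to chr6:52134220, 132 kb long, of which 6 lay before the window. This run was picked out after its values were seen. SMC1 was called at 13 of the 16 and SMC3 at 8, with both at 5, and SA2 at none. The genome held 11860 such runs with a median of 1 position, and 6 of them had 16 or more, the longest 21. Long runs can form only where wild-type intervals are sparse, and the wild-type lists are the shorter ones for both ring subunits.

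Within the run, HoxA positions 3 to 8 lay within 8.35 kb, at chr6:52108033-52116381. Position 3 had SMC3 alone at 479 bp. Position 4 had SMC1 at 408 bp and SMC3 at 1013 bp, position 5 had 628 and 735 bp, and position 6 had 537 and 415 bp. Position 7 had SMC1 alone at 1046 bp, the widest interval of any Hox window and wider than 96.5% of the SA1-null SMC1 list. Position 8 had SMC1 alone at 670 bp. Further on, position 9 at chr6:52122483-52123219 had SMC1 at 546 bp and SMC3 at 674 bp, and position 10 had SMC1 alone at 574 bp.

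By the definition of the run none of these positions had SA1. The nearest wild-type SA1 midpoint lay 13.5 to 94.6 kb from the 10 run positions inside the window, with a median of 35.9 kb. It lay 94.6 kb from position 1, 39.2 kb from position 3 and 13.5 kb from position 10. The median over all genome positions in SA1-null lists alone was 24.4 kb. The first SA1 site of the cluster was position 11 at chr6:52147036-52147836. That site carried SA1 at 640 bp, SMC1 at 695 and 601 bp and SA1-null SMC3 at 801 bp. Without the intervals of the run, HoxA had 8 SMC1 intervals in each genotype, and 3 and 8 SMC3 intervals. Over the 4 windows the SMC1 ratio was then 1.08 (27 to 25) and the SMC3 ratio 1.73 (26 to 15). The run is defined by the lack of wild-type intervals, so leaving it out can only lower these ratios.

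**Figure D3:**
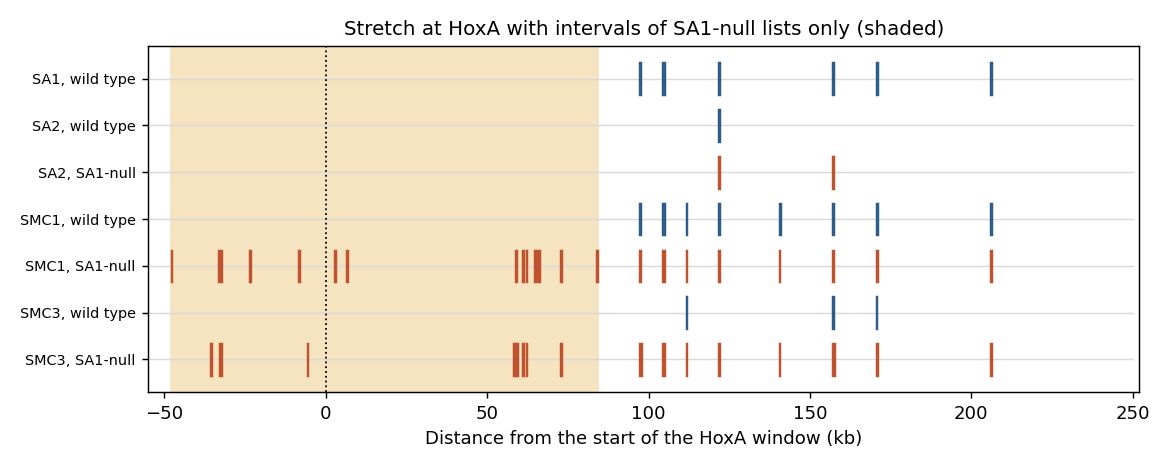
Intervals of 7 lists at HoxA by distance in kb from the start of the window (dotted line); left of it only the 6 positions of the run are drawn. The shaded stretch of 132 kb holds 13 SMC1 and 8 SMC3 intervals of SA1-null cells (orange) and no wild-type interval (blue), while to its right each SA1-null mark shares a position with some wild-type mark, of the same antibody for all 8 SMC1 marks, 3 of 8 SMC3 marks and 1 of 2 SA2 marks.

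Both ring subunits in SA1-null cells with neither in wild type marked 6 of the 48 window positions, with a background of 15.4%. HoxA held 4 of them (positions 4, 5, 6 and 9), and HoxB and HoxD 1 each. HoxB position 3 at chr11:96085067-96085671 had SMC1 at 425 bp and SMC3 at 531 bp. HoxD position 10 at chr2:74663499-74664036 had SMC1 at 360 bp and SMC3 at 444 bp. It lay alone at the far end of its window, 109 kb beyond position 9. None of the 6 had an SA1 interval, and the background was 26.3% of the 9046 positions of this kind over the genome. The 4 HoxA positions belong to the run, which is defined by the lack of wild-type intervals. Their lack of SA1 therefore says nothing beyond that definition, and too few others remain to compare with the background. The nearest SA1 midpoint lay 24.6 to 38.3 kb from the 4 HoxA positions, which neighbour each other, 11.1 kb from the HoxB position and 109.7 kb from the HoxD position. HoxC had no position of this kind. With lists of equal length 2 of the 6 were left, and with the widest 50% of each list also 2, with no background computed at these settings.

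The opposite pattern, both ring subunits in wild type and neither in SA1-null cells, occurred once, at HoxD position 2 (chr2:74493340-74493832). SMC1 was 493 bp wide and SMC3 357 bp, and no SA protein was called there. Over the genome 49 positions had this pattern, a background of 0.0836%. HoxD position 3 at chr2:74499664-74500303, 5.83 kb further on, also had wild-type intervals alone, with SA1 at 472 bp and SMC1 at 640 bp. The next site, position 4 at chr2:74501403-74502085, was called in both genotypes with SMC1 at 560 bp in wild type against 350 bp without SA1.

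Positions with wild-type intervals alone numbered 8 (16.7%, with a background of 13.1%), none of them in HoxA. They were HoxB positions 7 and 11, HoxC positions 1, 2 and 6, and HoxD positions 2, 3 and 7. Of the 26 SA1 positions, 20 had SMC1 or SMC3 in SA1-null cells (76.9%, interval 57.9 to 89.0%), with a background of 82.7%. The share was 6 of 6 in HoxA, 8 of 10 in HoxB, 2 of 4 in HoxC and 4 of 6 in HoxD. HoxB positions 7 and 11 and HoxD position 7 had SA1 in a single list, at 409, 478 and 358 bp. Positions in SA1-null lists alone numbered 16 (33.3%, with a background of 39.3%), 10 in HoxA, 3 in HoxB, 3 in HoxD and none in HoxC.

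Widths could be compared at shared sites. Where 1 wild-type and 1 SA1-null interval paired, SMC3 was wider in SA1-null cells at 9 of 14 pairs, with a background of 87.3% of 14871 pairs. The median SMC3 ratio of SA1-null to wild-type width was 1.20 in the windows, where single pairs ran from 0.867 to 1.76, and 1.25 over the genome. SMC1 was wider at 9 of 21 pairs, with a background of 52.1%, and its median ratio was 0.984 against 1.01. SA2 was wider at 2 of 5 pairs, with a background of 58.2%. Paired intervals overlap by definition, and their median midpoint distances were 15.0 bp for SA2, 54.0 bp for SMC1 and 47.5 bp for SMC3. Over the genome these medians were 54.5, 45.0 and 41.5 bp. The largest SMC3 increase was at HoxB position 9, from 383 to 674 bp, and SMC1 there measured 578 and 487 bp.

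**Figure D4:**
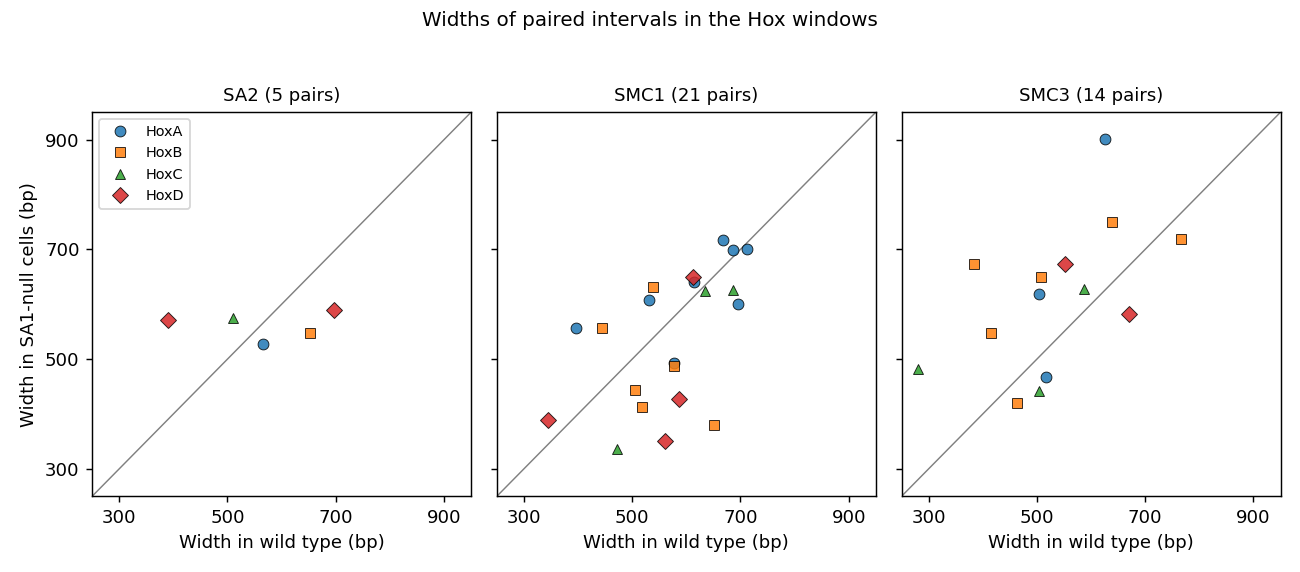
Each point is 1 wild-type interval paired with 1 SA1-null interval of the same antibody, by width in bp, for 5 SA2, 21 SMC1 and 14 SMC3 pairs; shapes give the cluster and the line marks equal widths. In SMC3, 9 of 14 points lie above the line, and in SMC1, 12 of 21 lie below it.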

How the data were processed

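Intervals came from 10 lists that the authors deposited, each with a chromosome, a start and an end and no score. The submitters' processing notes name mm9 as the build and CASAVA 1.7 as software; the sources used here give neither aligner nor peak caller. The deposited names give an input for each list and a false discovery rate of 10, read as percent. By these names the SA2 lists and wild-type SA1 were set against one input, the remaining lists against the second. Coordinates are printed 1-based, taking deposited starts to count from 0. Depth is unknown.

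An interval counted when it overlapped a window, and 1 interval crossed an edge. Lists shared a site at an overlap of at least 1 bp. Genome tiles ran from the first to the last interval of each chromosome and counted midpoints. Named one by one were positions in at least 6 of 7 lists, positions with SA2 or both ring subunits in 1 genotype only, and the widest interval of each window; other positions were added after their values were seen. Windows and lists were chosen with earlier results of these data known. Scripts ran in Python 3.11.15 with matplotlib 3.10.9, scipy 1.17.1 and numpy 2.4.6. Overlap functions were tested on simulated data, recovering 100% of sites planted among 24000 wild-type SMC1 intervals, and gave the counts of bedtools 2.31.1 in 200 comparisons.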

Additional observations from a re-analysis of the deposited data

Results flagged for a closer look

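Interval numbers in the Hox windows lay in opposite directions for SA2 and the ring, as they did over the genome. SA2 had 0.778 times as many intervals in SA1-null as in wild-type cells, SMC1 1.44 times and SMC3 2.07 times as many, where the whole lists gave 0.821, 1.96 and 2.24. With lists of equal length the window values were 0.875, 0.880 and 0.667, all below 1. With 1 list per antibody and genotype the difference between antibodies was not tested.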

How the results depend on the processing

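The settings tried were an overlap of 50% of the shorter interval, joining of intervals closer than 1000 bp, removal of background intervals, the widest 50% of each list, lists of equal length by width, and windows shortened by 25000 bp at each end. The same settings other than shorter windows were run on the HoxA run, and ratios without the run, after the data were seen. Over 13 results these gave 80 values, of which 72 kept their direction and stayed within the counting interval of the value reported, or within 1.5 times a count. With lists of equal length the ratios turned, to 0.880 for SMC1 and 0.667 for SMC3. This setting makes the ratio of the whole lists 1. The share of wild-type intervals called again was then 48.0% for SMC1 and 26.7% for SMC3, and 2 positions in place of 6 had both ring subunits in SA1-null cells alone. With the widest 50% of each list, which leaves fewer intervals, the windows held 31 positions in place of 48, the SMC3 share was 60.0%, and again 2 positions were left of the 6. Both settings shorten lists over the whole genome, and no background was computed for these shares and counts. The HoxA run held 12 to 16 positions in all settings tried on it. No window interval overlapped a background interval, so their removal changed no value. An overlap of 50% could not alter the ratios, which count intervals, and the run held no SA2, so the SA2 ratio without it was fixed. The 72 thus include values that could not change. No paired analysis was possible because replicate numbers occur in 1 group only, whose 2 samples share 1 list.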

Other observations

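The surroundings of the clusters were not alike. Stretches of the same length as the window on either side held 4 and 1 wild-type SA1 intervals at HoxA (6 in the window), 10 and 9 at HoxB (10), 7 and 17 at HoxC (4) and 1 and 3 at HoxD (6), in the order before and after the window. SA1-null SMC1 gave 14 and 5 at HoxA (17 in the window), 17 and 11 at HoxB (10), 11 and 32 at HoxC (3) and 1 and 3 at HoxD (6). HoxC was thus poorer than its surroundings in both lists, and HoxA and HoxD were richer. HoxB was about level with its surroundings in SA1 and poorer in SA1-null SMC1.

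Each window had long stretches without any interval, and over the genome 16.4% of 250 kb tiles held no position at all. The longest in the windows were chr6:52056770-52108032 in HoxA (51.3 kb), chr11:96173423-96261029 in HoxB (87.6 kb), chr15:102844464-102922926 in HoxC (78.5 kb) and chr2:74554485-74663498 in HoxD (109 kb), counting only stretches between 2 positions of a window. Other gaps were long too, such as 75.9 kb after HoxD position 1 and 52.3 kb after HoxB position 1. Over all gaps, the longest included, the medians were 6.48 kb in HoxA, 10.4 kb in HoxB, 22.7 kb in HoxC and 9.98 kb in HoxD.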
